A study of Mus musculus with 16 samples.

Results

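Mouse primary cortical neurons that received the hairpin shNup153-2 were compared with neurons that received a control hairpin (shControl), both at basal state, that is without a drug to silence them. The comparison holds 2 knockdown libraries and 4 control libraries, 6 of the 16 samples of the series, and covers every gene line of the basal count table. Of 26371 gene symbols, 19682 passed the filter on low counts and were tested. All groups used here came from C57/BL6 embryos at embryonic day 17.5 to 19.5, and the labels describe a replicate as the pooled cortices of 1 litter. An adeno-associated virus (AAV) delivered each hairpin from day 8 to day 13 in vitro. Silenced cultures with the same hairpin (3 libraries) and their own shControl (3 libraries) are set beside the basal values. They also received tetrodotoxin at 1 to 2 µM for 24 hours, which blocks sodium channels, and D-AP5 at 100 µM for 6 hours, which blocks NMDA receptors. Per the labels, samples went on to sequencing once the knockdown of Nup153 was judged sufficient, so its level was a criterion of selection. In the knockdown samples the title gives shNup153-2 but the description gives the control virus, and grouping follows the titles. The knockdown arm is 1 hairpin without a rescue in these data.

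Nup153 is a protein of the basket on the nuclear face of the pore complex. The basket takes part in the import of proteins and the export of mRNA, and nucleoporins of this kind also touch chromatin. The series as labelled is about Nup153, the deacetylase HDAC1 and how responsive neurons are. In cortical neurons, calcium entry during synaptic activity switches on immediate early genes within minutes. Many of these encode transcription factors, which are followed by late genes for secreted factors and synaptic proteins.

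The 6 libraries held 28940314 to 56299817 counts, and the 10 most abundant genes took 4.31% to 5.44% of them. Levels are counts-per-million values (CPM), scaled by TMM factors. Counts are not divided by transcript length, so CPM compares 1 gene between libraries and not genes with each other. The shControl libraries did not form 1 cluster. On the first principal component of log2 CPM, which held 60.7% of the variance, shControl libraries 2 and 4 scored 93.5 and 66.0, shControl libraries 1 and 3 scored -9.94 and -6.81, and the knockdown libraries scored -72.6 and -70.0. Counts without 1 of these pairs of controls are therefore given beside the main count. The 10 neuron markers summed to 5367 to 9131 CPM in shControl and to 6970 and 8106 in the knockdown libraries. The 12 interneuron markers summed to 952, 1499, 823 and 1507 CPM in shControl libraries 1 to 4 and to 1416 and 1359 CPM in the knockdown. None of them passed the test below. Without controls 2 and 4 their median log2 fold change was 0.56 and 4 rose. Without controls 1 and 3 the median was -0.02, and 2 rose and 3 fell. Oligodendrocyte lineage markers, 9 of 16 tested, summed to 125 to 294 CPM and to 259 and 385 CPM, and none passed.

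Nup153 (chromosome 13, 46679905 to 46727940, minus strand, mm10) measured 96.3, 55.1, 78.7 and 58.8 CPM in shControl libraries 1 to 4 and 13.6 and 11.6 CPM in the knockdown libraries. Both knockdown libraries lay below all 4 controls. The log2 fold change was -2.52 (SE 0.29, edgeR BH-adjusted p = 0.00502). Without knockdown library 1 it was -2.63 (edgeR BH-adjusted p = 0.0767) and without library 2 it was -2.41 (edgeR BH-adjusted p = 0.0927), so the size held while the call needed both libraries. The other basket genes Tpr and Nup50 did not pass the test. Tpr had a log2 fold change of 0.12 (SE 0.24) and Nup50 one of 0.16 (SE 0.17). Of 30 nucleoporin genes tested, Nup153 and the export factor Rae1 (-0.85) fell and Ndc1, which anchors the pore in the membrane, rose (0.93). Hdac1, which the labels name, read 11.4, 15.1, 13.2 and 14.4 CPM in shControl and 9.89 and 9.94 CPM in the knockdown. Its change of -0.45 (SE 0.21) did not pass (edgeR BH-adjusted p = 0.197).

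At a false discovery rate (FDR) of 0.05, 1164 genes rose with shNup153-2, 5.91% of those tested, and 716 fell, 3.64% of those tested. The median log2 fold change was 1.31 among genes that rose and -1.41 among genes that fell. Changes of more than 2 on the log2 scale were found for 231 genes that rose and 182 that fell. Genes that rose summed to 49010 CPM in shControl and 116737 CPM in the knockdown, and genes that fell went from a summed 52763 CPM to 20421 CPM. In a bulk culture, fewer cells of a type and less RNA per cell cannot be told apart. All 1164 and all 716 had both knockdown libraries outside the range of the 4 controls, which also held for 22.0% of all genes tested on the upper side and 22.1% on the lower side. With only knockdown library 2 kept, 24 genes rose and 1 fell, and with only library 1 kept, 15 rose and 0 fell. The lone library is then assumed to vary like the controls. The direction was kept by 1161 and 1160 of the 1164 genes and by 715 of the 716 in both cases. Without shControl library 4, 431 rose and 219 fell. Without shControl libraries 2 and 4 together, 1937 rose and 1469 fell, among them 1131 of the 1164 and 690 of the 716. Without shControl libraries 1 and 3 together, 4706 rose and 4371 fell.

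**Figure D1:**
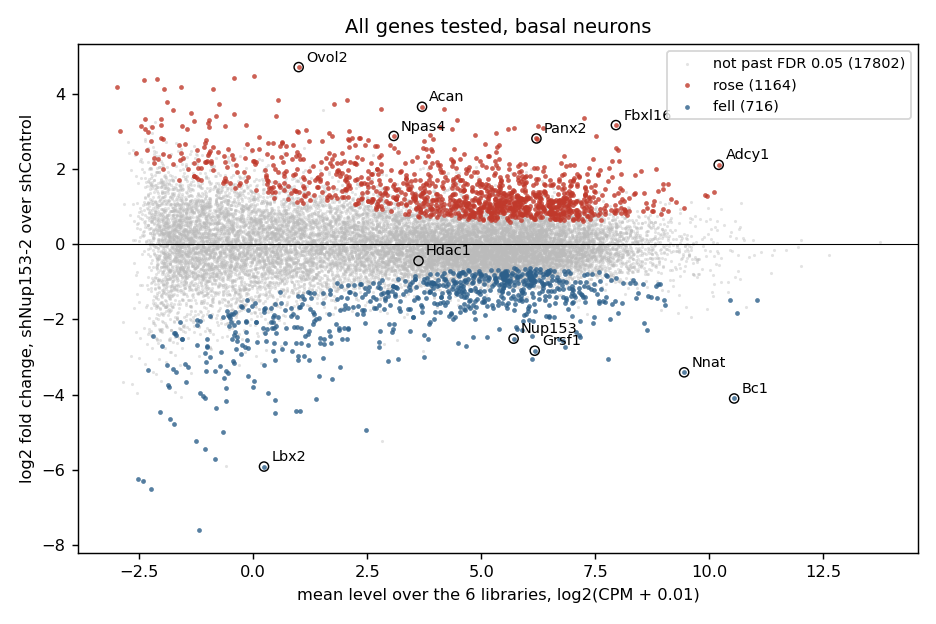
Log2 fold change of shNup153-2 over shControl (vertical axis) against the mean level over the 6 basal libraries as log2(CPM + 0.01) (horizontal axis), 1 point per gene tested. Red points rose (1164) and blue points fell (716) at an FDR of 0.05. Circles mark genes named in the text, such as Nup153 at -2.52 and Fbxl16 at 3.16.

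The genes that changed differed in length. Genes were sorted into 5 equal classes by the summed length of their exons, for 98.4% of the genes tested. In the class with the shortest transcripts, up to 1499 bases, 1.52% rose and 2.99% fell, and in the class with the longest, from 6733 bases, 9.94% rose and 2.45% fell. The libraries themselves differed in the same property. The median of the longest class minus that of the shortest, in log2 CPM centred on the mean of the 6 libraries, was 0.27, -0.63, 0.06 and -0.41 in shControl libraries 1 to 4 and 0.43 and 0.18 in the knockdown libraries. With a smooth trend on transcript length taken out of every library, 1007 genes rose and 1007 fell, so genes that rose made up 50% of the calls against 61.9% before. With DESeq2 this share was 53.1%. The part of transcript length in single results was not tested beyond that fit.

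Immediate early genes rose, among them transcription factors of the Npas4, Nr4a and Egr families. Of 36 immediate early genes tested, 16 rose (44.4%, against 5.91% of all genes tested) and none fell. The median log2 fold change was 0.96, against a median of -0.03 over all genes tested. Both knockdown libraries were above all controls for 20 of the 36, against 22.0% of all genes tested. Npas4, a neuron-specific factor induced by calcium entry, read 2.80, 2.53, 3.39 and 2.12 CPM in shControl and 18.2 and 21.6 CPM in the knockdown (2.87 on the log2 scale, SE 0.24, edgeR BH-adjusted p = 0.00256). The 4 controls lay within a narrow range and the knockdown libraries several times above it. The orphan nuclear receptor Nr4a1 went from 5.86, 3.35, 9.67 and 3.70 CPM to 43.0 and 67.6 CPM (3.29, SE 0.41, edgeR BH-adjusted p = 0.00604). Its relative Nr4a3 went from 18.7, 7.08, 11.3 and 12.8 CPM to 101 and 91.4 CPM (2.94, SE 0.32). Nr4a2 rose by less, at 0.93. The zinc finger factors Egr1 (2.12), Egr3 (1.22) and Egr4 (1.96) rose, as did the pseudokinase Trib1 (1.92), the factors Fosl2 (1.87) and Klf10 (0.88), and Arc (2.79), which drives the internalisation of AMPA receptors. Arc showed how far the 2 knockdown libraries could differ, with 22.7 and 49.1 CPM against 6.69, 2.98, 6.12 and 4.79 CPM in shControl.

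Fos itself did not pass. It read 17.9, 3.62, 23.2 and 6.69 CPM in shControl and 32.2 and 49.3 CPM in the knockdown (1.66, SE 0.62, edgeR BH-adjusted p = 0.126). The knockdown libraries lay above all controls, but controls 1 and 3 were several times above controls 2 and 4. Fosb showed the same split of the controls, at 1.76, 0.671, 5.79 and 0.868 CPM against 6.88 and 12.6 CPM (2.09, SE 0.75, edgeR BH-adjusted p = 0.115). Junb had a log2 fold change of 0.35 (SE 0.26). The list's mean log2 CPM was 3.36, 2.86, 3.51 and 2.98 in shControl and 3.95 and 4.56 in the knockdown. Its median was 0.90 without controls 2 and 4 and 1.24 without controls 1 and 3.

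Dual-specificity phosphatases, some of which switch off MAP kinases and are themselves induced by that pathway, formed a further group. With the Sprouty and Spred genes, 28 were tested, of which 11 rose and none fell (median 0.95), against 5.91% and 3.64% of all genes tested. The 11 were Dusp1, Dusp4, Dusp5, Dusp6, Dusp7, Dusp8, Dusp9, Dusp18, Dusp19, Dusp22 and Spred3, and Dusp1, Dusp5 and Dusp6 also stand in the immediate early list. Dusp8 read 62.3, 63.3, 56.2 and 71.4 CPM in shControl and 191 and 172 CPM in the knockdown (1.52, SE 0.17). Dusp7 read 31.9, 39.0, 33.6 and 32.3 CPM against 84.1 and 96.0 CPM (1.40, SE 0.17). In both the controls lay close together and apart from the knockdown. Dusp9 had the largest change of the group (3.27), at a low level of at most 1.25 CPM.

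Late activity-regulated genes came next, with 11 of 35 risen (31.4%, against 5.91% of all genes tested) and 2 fallen (median 0.74). The secreted factors among them were the neurotrophin Bdnf, with 3.84, 4.70, 9.67 and 5.75 CPM in shControl and 30.7 and 68.5 CPM in the knockdown (3.05, SE 0.41), the peptide PACAP encoded by Adcyap1 (4.18, 1.98, 6.30 and 3.02 against 35.0 and 59.0 CPM, 3.60, SE 0.41) and Vgf (13.5, 19.6, 32.4 and 28.8 against 122 and 276 CPM, 3.08, SE 0.40). For all 3 the second knockdown library was the higher. Pcsk1, which cleaves prohormones, rose by 2.53, the granin Scg2 by 1.71 and the synaptic pentraxin Nptx2 by 2.15. Cyclooxygenase 2, the product of Ptgs2, rose by 2.80 at the transcript level. The 2 that fell were Plk2, a kinase of homeostatic synaptic downscaling, and Dclk3. Plk2 read 670, 773, 506 and 688 CPM in shControl and 231 and 244 CPM in the knockdown, a log2 fold change of -1.47 (SE 0.24, edgeR BH-adjusted p = 0.012).

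Acan, which encodes aggrecan, the main proteoglycan of perineuronal nets, had the smallest p of all genes. It read 2.78, 2.35, 3.09 and 2.48 CPM in shControl and 30.5 and 36.8 CPM in the knockdown (3.65, SE 0.21, edgeR BH-adjusted p = 0.00134). No control came near either knockdown library. Of 34 genes of perineuronal nets and extracellular matrix, 6 rose and 1 fell, against 5.91% and 3.64% of all genes tested. With the length trend removed 4 rose and 3 fell. Hapln4 and Hapln1, which link such proteoglycans to hyaluronan, rose by 2.54 and 0.98, and the laminin gene Lama2 by 0.98. Tnc, which encodes tenascin C, fell (-1.01).

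The microRNA pair Mir132 and Mir212 stood among the 16 largest rises. Both lie within 1 transcription unit on chromosome 11 that CREB, the factor bound to cAMP response elements, is known to switch on. Reads over these loci in poly(A) libraries come from the primary transcript, so the levels of the mature microRNAs were not measured. Mir132 read 0.0727, 0, 0.212 and 0.161 CPM in shControl and 1.14 and 1.89 CPM in the knockdown (3.73, SE 0.70, edgeR BH-adjusted p = 0.0185). Mir212 read 0.127, 0, 0.212 and 0 CPM in shControl and 1.35 and 2.69 CPM in the knockdown (4.41, SE 0.84, edgeR BH-adjusted p = 0.0196). Both are low, and no control exceeded 0.212 CPM. The 2 loci give mature 3p strands with 1 shared seed, bases 2 to 8, which is shown in capitals because it sets the targets of a microRNA (RefSeq, GRCm38.p6, 5′ to 3′).
miR-132-3p: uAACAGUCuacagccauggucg
miR-212-3p: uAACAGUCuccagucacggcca
Of 24 neuronal long noncoding RNAs tested, 2 rose and 2 fell. Mir670hg read between 1.36 and 1.98 CPM in shControl and 12.2 and 11.4 CPM in the knockdown (2.82). Mir124a-1hg, a host transcript of miR-124, read between 103 and 205 CPM in shControl and 50.2 and 59.6 CPM in the knockdown (-1.57).

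Promoters were searched for short motifs on both strands, in the 250 bases before to 50 after each RefSeq start (GRCm38.p6). Such a window was found for 851 genes that rose, 508 that fell and 12300 tested. The full cAMP response element TGACGTCA was in 4.00% of those that rose, 3.15% of those that fell and 3.39% of all. The AP-1 motif TGANTCA was in 9.28%, 4.13% and 6.25%. The EGR motifs GCGTGGGCG or GCGGGGGCG were in 10.1%, 7.87% and 7.55%, and the NRF1 motif GCGCATGC in 2.94%, 3.74% and 5.46%. For the E-box CACGTG the shares were 9.28%, 12.8% and 11.2%, for CCAAT 41.0%, 41.5% and 42.7%, and for the hypoxia element ACGTG, which the E-box contains, 26.1%, 28.0% and 28.2%. Genes that rose had 1.40 promoter windows each on average against 1.28 over all, so a match is somewhat more likely for them by number of windows. These shares are descriptions of letters and not of bound sites. The windows below are promoters of named genes, with the motif in capitals, and show the full response element in a MAP kinase phosphatase, where it occurs at 2 positions, and in a prohormone convertase that rose, and in Plk2, which fell.
Dusp8, chr7:142095373-142095402, minus strand: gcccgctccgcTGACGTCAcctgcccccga
Dusp8, chr7:142095329-142095358, minus strand: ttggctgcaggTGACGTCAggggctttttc
Pcsk1, chr13:75089768-75089797, plus strand: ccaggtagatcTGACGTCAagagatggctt
Plk2, chr13:110394971-110395000, plus strand: agcgctcgccgTGACGTCAcgaggccccgc
The AP-1 motif is shown in 2 genes that rose and kept their call whichever single library was left out.
Rcan2, chr17:43952963-43952992, plus strand: aacagcaccagTGACTCAgttcctcacgaa
Rph3a, chr5:121010175-121010204, minus strand: gccaaaacattTGAATCAgagggtgggtta
Both motifs stood in promoters of named genes of either direction, the response element also in Cbx8 and the AP-1 motif also in Prnp and Xpot, which fell.

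Exactly 14 genes kept their call with each of the 6 libraries left out in turn, and all 14 rose. They were Acan, Panx2, Fbxl16, Furin, Rph3a, Rcan2, Camta2, Ctnnd2, Ovol2, Slc7a8, Cd276, Hivep1, Pak6 and Hcn2, of which Cd276, Hivep1 and Pak6 were named only after this count was seen. Panx2, a large-pore channel protein of neurons, read 23.3, 25.4, 22.7 and 27.3 CPM in shControl and 184 and 161 CPM in the knockdown (2.81, SE 0.17, edgeR BH-adjusted p = 0.00134). Fbxl16, an F-box protein, read 55.4, 64.9, 74.7 and 76.6 CPM against 581 and 636 CPM (3.16, SE 0.20, edgeR BH-adjusted p = 0.00134). For both, spread within either group was small beside the distance between the groups. The proprotein convertase Furin went from 18.4, 16.5, 18.9 and 20.4 CPM to 89.3 in both knockdown libraries (2.27, SE 0.16). Rcan2, a regulator of the phosphatase calcineurin, went from 25.8, 19.3, 25.0 and 30.3 CPM to 166 and 180 CPM (2.78, SE 0.20). Camta2, a calmodulin-binding transcription activator, moved from 60.7, 60.3, 64.3 and 63.0 CPM to 258 and 277 CPM (2.11, SE 0.16). Ctnnd2, the delta-catenin of dendritic spines, rose by 2.88 and the amino acid transporter Slc7a8 by 3.06.

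**Figure D2:**
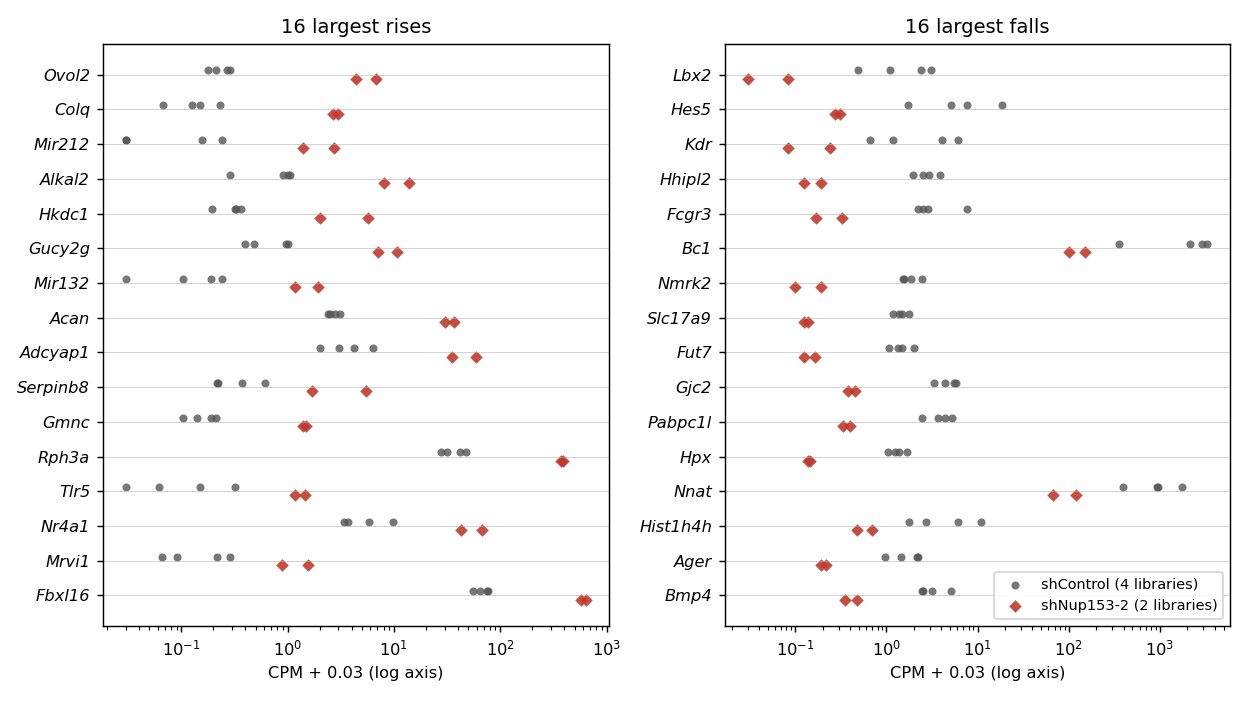
Levels in each basal library of the 16 largest rises (left) and 16 largest falls (right) by log2 fold change, as CPM + 0.03 on a log axis. Grey points are the 4 shControl libraries and red diamonds the 2 shNup153-2 libraries. No diamond lies within the range of the grey points of its gene, which was a condition for being named, and on the right the grey points of Bc1, Hes5 and Kdr are spread widest.

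The largest rises by fold were mostly genes of low level. Ovol2, a zinc finger repressor of epithelial cells, went from 0.236, 0.149, 0.182 and 0.257 CPM to 4.36 and 6.72 CPM (4.71, SE 0.35, edgeR BH-adjusted p = 0.00168). Colq, the collagen tail of acetylcholinesterase, was at no more than 0.20 CPM in shControl and at 2.66 and 2.93 CPM in the knockdown (4.47, SE 0.47). Alkal2, a ligand of the ALK receptor, was at no more than 1.03 CPM in shControl and at 8.02 and 13.9 CPM (3.84, SE 0.50). Exons of the opposite strand cover 35.1% of Alkal2 and 17.0% of Ovol2. The libraries keep the strand, but whether the counting used it is not stated, so reads of the partner gene cannot be told apart. The largest differences in level were those of Adcy1, a calcium-stimulated adenylyl cyclase, which read 700, 621, 506 and 423 CPM in shControl and 2774 and 2076 CPM in the knockdown (2.11, SE 0.26). Syt1, the calcium sensor of fast transmitter release, read 738, 734, 585 and 780 CPM against 2012 and 1720 CPM (1.40, SE 0.21). The calcium pump Atp2a2 (1.29), the actin-capping Tmod2 (1.61), the lipid phosphatase-related Plppr4 (1.47) and the calmodulin-binding Nrgn (1.98) also rose.

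Ion channel genes had many rises and few falls. Of 64 potassium and HCN channel genes tested, 19 rose and none fell (median 0.63), against 5.91% and 3.64% of all genes tested. Both knockdown libraries were above all controls for 34 of the 64, against 22.0% of all genes tested. Removing the length trend gave 17 rises and 2 falls (median 0.49). Hcn2, a pacemaker channel opened by hyperpolarisation, read 15.9, 16.6, 10.6 and 17.9 CPM in shControl and 101 and 88.1 CPM in the knockdown (2.63, SE 0.22, edgeR BH-adjusted p = 0.00256). Hcn4 rose by 1.81 and Hcn3 by 1.08. The fast Kv3 channels Kcnc4 and Kcnc2 rose by 2.14 and 1.28. Kcnc4 went from 20.1, 27.7, 19.5 and 24.2 CPM to 103 and 99.3 CPM. The M-current subunits Kcnq3 (2.02) and Kcnq5 (1.01), the Kv1 genes Kcna1 (2.04), Kcna2 (1.31) and Kcna4 (1.08), and the leak channels Kcnk2 (0.82) and Kcnk3 (1.54) were also among the 19. Of 35 sodium and calcium channel genes, 7 rose and 1 fell, including the P/Q-type pore Cacna1a (1.31), the sodium channels Scn1a (1.12) and Scn2a (1.10), and Cacng5, Cacng7 and Cacng8, of a family whose members accompany AMPA receptors (1.60, 1.36 and 0.89). The member that fell was Cacna2d3 (-1.16).

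On the postsynaptic side, 10 of 31 scaffold genes rose and 1 fell (median 0.64), against 5.91% and 3.64% of all genes tested. With the length trend removed 6 rose and 2 fell (median 0.29). All 3 Shank genes, which hold the postsynaptic density together, rose, with Shank3 at 58.8, 41.4, 54.2 and 47.9 CPM in shControl and 217 and 230 CPM in the knockdown (2.14, SE 0.19, edgeR BH-adjusted p = 0.00285). Shank2 read 107, 53.8, 92.3 and 59.1 CPM against 396 and 346 CPM (2.25), and Shank1 137, 72.7, 144 and 87.7 CPM against 444 and 446 CPM (2.01). In Shank1 and Shank2, controls 2 and 4 were the 2 lowest libraries, while the knockdown libraries exceeded the other controls as well. Their partner Dlgap3 rose by 2.11 and Dlg4, which encodes PSD-95, by 0.93. Homer3 fell (-1.91), and Homer1 did not change past the threshold (0.16, SE 0.19). Among 25 glutamate receptor genes 4 rose and 1 fell (median 0.42, and 0.26 with the length trend removed). The obligatory NMDA receptor subunit Grin1 went from 186, 192, 183 and 202 CPM to 415 and 413 CPM (1.12, SE 0.17), Grin2d rose by 2.41 and the autoreceptor Grm2 by 2.19. Of 44 receptors for monoamines, acetylcholine and opioids, 9 rose and none fell, led by the beta-adrenergic Adrb1 (1.91), the alpha-adrenergic Adra1d (2.00), the nicotinic subunit Chrna4 (1.68) and the histamine receptor Hrh1 (1.34). Of 19 GABA and glycine receptor genes, Gabra4 (0.66) and Glrb (0.63) rose, and with the length trend removed 0 rose and 1 fell.

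Presynaptic genes moved in both directions. Of 42 tested, 9 rose and 3 fell (median 0.37), against 5.91% and 3.64% of all genes tested. With the length trend removed 6 rose and 3 fell (median 0.17). Rph3a, an effector of the vesicle protein Rab3, read 31.7, 41.9, 27.8 and 47.6 CPM in shControl and 388 and 374 CPM in the knockdown (3.36, SE 0.24, edgeR BH-adjusted p = 0.00168). The active zone protein Bsn rose by 2.21. Syt5, another synaptotagmin, fell from 152, 159, 135 and 168 CPM to 24.6 and 26.8 CPM (-2.58, SE 0.20, edgeR BH-adjusted p = 0.00181). The vesicular glutamate transporters went opposite ways. Slc17a6 fell from 105, 75.4, 77.5 and 96.9 CPM to 22.6 and 21.0 CPM (-2.02, SE 0.22), while Slc17a7 rose from 474, 400, 330 and 498 CPM to 725 and 835 CPM (0.87, SE 0.23, edgeR BH-adjusted p = 0.0491). The call of Slc17a7 was lost with any 1 library left out. Slc17a9, which loads vesicles with nucleotides, fell by 3.79 on the log2 scale. Among 30 neuropeptide and granin genes 4 rose, all named above, and Scg3 (-2.47) and Gal (-2.85) fell.

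Genes of cell contact and axon guidance had more rises than falls, as did all genes tested (5.91% rose and 3.64% fell). Rises made up 14.9% of axon guidance genes, 14.3% of Wnt pathway genes and 14.3% of clustered protocadherins. Of 67 axon guidance genes 10 rose and 1 fell, with Ntn4 (1.36), Sema6b (1.61), Ephb2 (1.53) and Ephb1 (1.03) first by p and Efna1 (-2.63) as the one that fell. Of 35 Wnt pathway genes 5 rose and none fell, among them the ligands Wnt7a (1.70), Wnt7b (1.53) and Wnt4 (1.63). Of 56 clustered protocadherins 8 rose and none fell (median 0.73), 7 of them in the gamma cluster, where Pcdhgc5 read 21.5, 6.37, 23.4 and 9.29 CPM in shControl and 105 and 152 CPM in the knockdown (3.08, SE 0.48). For the 56 protocadherins, the median was 0.43 without controls 2 and 4, and 13 rose and 1 fell. Without controls 1 and 3 it was 1.19, and 44 rose and 1 fell. Protocadherins of a cluster share exons, so their counts are uncertain one by one. In the Notch pathway list Rfng (1.67), Maml1 (1.12) and Maml3 (1.72) rose. The DNA-binding effector Rbpj (-0.86), the target Hes5 and its family member Hes6 (-1.17) fell.

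**Figure D3:**
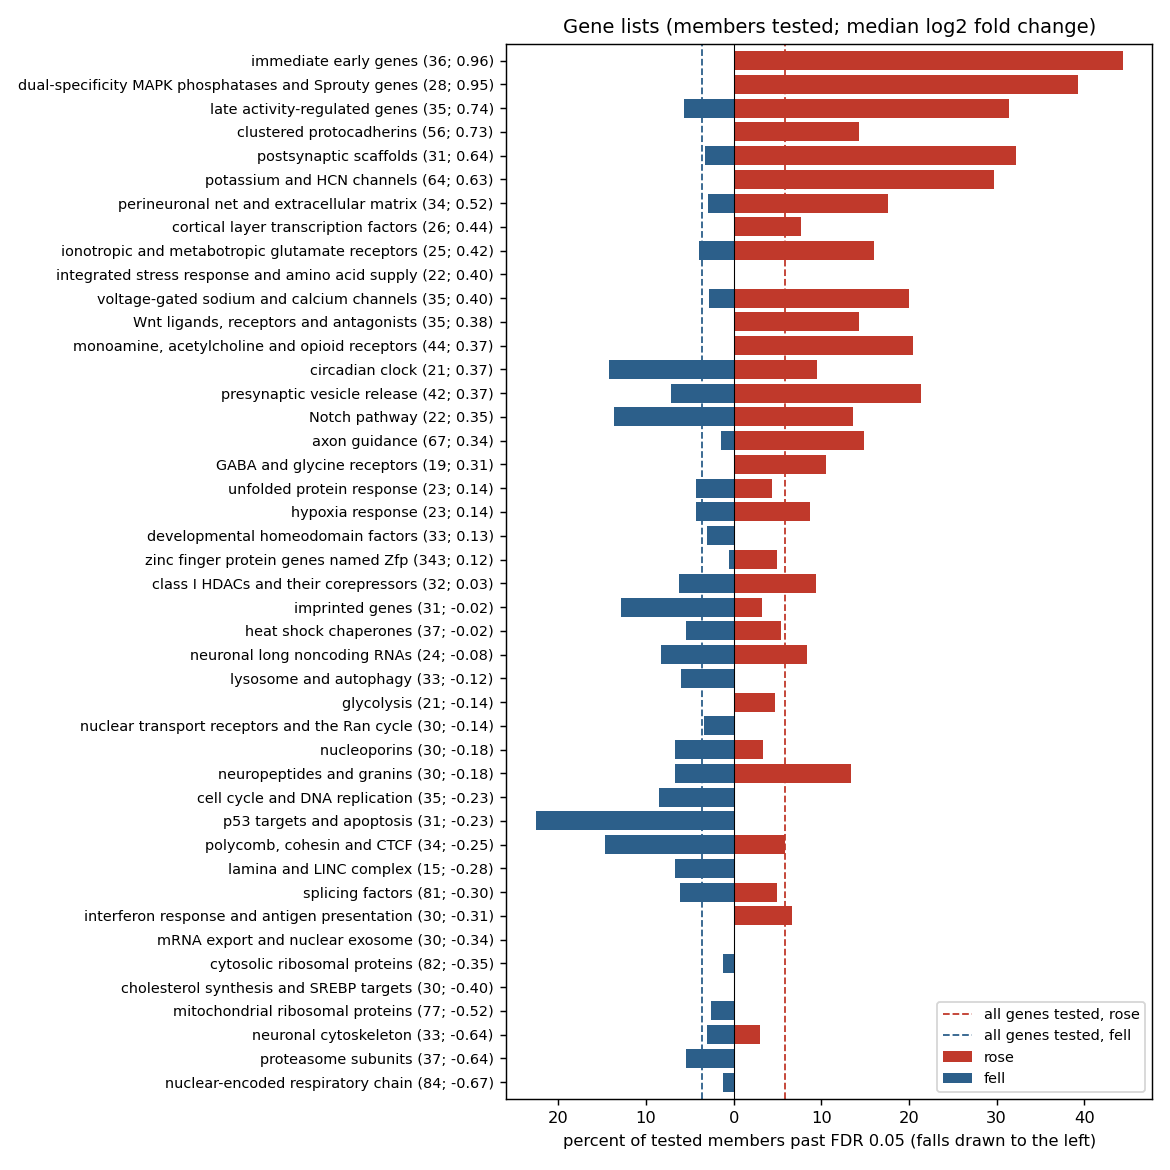
Percent of tested members that rose (red, to the right) and fell (blue, to the left) at an FDR of 0.05, for the gene lists with at least 15 tested members, ordered by median log2 fold change. The number of members tested and the median stand beside each name, and dashed lines show all genes tested (5.91% rose, 3.64% fell). Immediate early genes are at the top, with 44.4% risen.

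Among the genes that fell, Grsf1 had the smallest p. Its product is an RNA-binding protein of mitochondrial RNA granules. It read 107, 111, 88.0 and 99.2 CPM in shControl and 15.3 and 13.0 CPM in the knockdown (-2.84, SE 0.21, edgeR BH-adjusted p = 0.00168). The 4 controls lay between 88.0 and 111 CPM, far above both knockdown libraries. Smim13 fell from 201, 204, 144 and 192 CPM to 33.4 and 40.4 CPM (-2.33), Tro, which encodes trophinin, from 341, 284, 290 and 300 CPM to 83.4 and 69.7 CPM (-1.99), and Prps1l3 by 2.00 on the log2 scale. Kctd10, an adaptor of a cullin ubiquitin ligase, fell from 84.5, 128, 70.7 and 111 CPM to 12.2 and 11.5 CPM (-3.05), with 37.9% of its exon length covered by exons of the other strand. Ndrg1, a gene of the hypoxia response and of stress, fell from 336, 324, 186 and 402 CPM to 44.2 and 31.1 CPM (-3.05).

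The largest falls by fold were again often genes of low level. Lbx2, a homeobox gene, held 2 counts over both knockdown libraries against 216 over the controls. Relative to the library totals this is a ratio of 59.9 of shControl to knockdown (95% interval 16.4 to 498, for counting error only). Kdr, the VEGF receptor of endothelium, read 6.06, 1.16, 0.636 and 4.02 CPM against 0.21 and 0.0533 CPM (-4.44, SE 1.14). Of 6 endothelial markers tested, 5 were below all controls, against 22.1% of all genes tested, and 1 of them was past the threshold. Their summed level was 6.21 to 18.2 CPM in shControl and 3.45 and 4.08 CPM in the knockdown. The part of endothelial cells in other results was not tested. Fcgr3, an Fc receptor of microglia and macrophages, fell by 4.11 on the log2 scale, while the 3 microglia markers tested summed to at most 1.20 CPM in any library and 1 of them, P2ry12, rose at that level. Hes5 read 5.07, 7.64, 1.70 and 18.3 CPM in shControl and 0.28 and 0.24 CPM in the knockdown (-4.95, SE 1.03), and exons of the other strand cover 31.8% of it. Bc1, a short cytoplasmic RNA of dendrites, was the fall with the largest difference in level, at 355, 3332, 2133 and 2906 CPM against 101 and 152 CPM (-4.11, SE 0.88, edgeR BH-adjusted p = 0.0286). Its controls differed among themselves by more than the lowest control differed from the knockdown. The imprinted gene Nnat read 924, 956, 398 and 1732 CPM against 122 and 66.9 CPM (-3.41, SE 0.62). Of the abundant neuronal transcripts, Gpm6a (-1.48), Enc1 (-1.49), Tubb2b (-1.82), Prnp (-1.61) and Fez1 (-2.29) fell.

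Of 31 p53 targets and apoptosis genes tested, 7 fell (22.6%, against 3.64% of all genes) and none rose, while 9 of the 31 had values above 0. The 7 include genes of both roles, since Bid, Hrk, Bcl2l11 and Apaf1 promote apoptosis and Bcl2l1 opposes it. Apaf1, the scaffold of the apoptosome, read 122, 82.2, 104 and 127 CPM in shControl and 50.8 and 41.4 CPM in the knockdown (-1.24, SE 0.24). Hrk, a BH3-only protein, went from 165, 71.6, 103 and 135 CPM to 30.5 and 31.5 CPM (-1.94). Bid changed by -1.29. Bcl2l1 changed by -1.08. Of 34 polycomb, cohesin and CTCF genes 5 fell and 2 rose, and 10 fell and 0 rose with the length trend removed. The 5 were all of the canonical polycomb repressive complex 1, namely the ubiquitin ligase Rnf2 (63.6, 79.3, 62.7 and 67.3 CPM against 24.4 and 24.8 CPM, -1.47) and the chromobox genes Cbx2 (-1.33), Cbx6 (-0.78), Cbx7 (-1.07) and Cbx8 (-1.08). Of 32 class I deacetylases and corepressors 3 rose and 2 fell, and 1 rose and 3 fell with the length trend removed. Hdac2 fell from 164, 237, 153 and 204 CPM to 102 and 87.4 CPM (SE 0.24 on the log2 scale, edgeR BH-adjusted p = 0.039). Gatad2a (0.73) and Chd5 (0.81) rose and Ing1 (-1.37) fell, while Hdac3 had a value of -0.52 that did not pass.

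Several housekeeping groups had lower medians that depended on which controls were used. The nuclear-encoded respiratory chain had 80 of 84 genes below 0 with a median of -0.67, but only Sdha passed (-1.04). Its mean log2 CPM was 5.68, 6.86, 5.78 and 6.43 in shControl and 5.6 and 5.73 in the knockdown, so controls 1 and 3 overlapped the knockdown and controls 2 and 4 stood above it. The median was -0.07 without controls 2 and 4 and -1.04 without controls 1 and 3. All 37 proteasome genes were below 0 with a median of -0.64. It was -0.15 without controls 2 and 4 and -0.97 without controls 1 and 3. For 33 genes of the neuronal cytoskeleton the median went from -0.64 to -0.05 without controls 2 and 4 and to -1.01 without controls 1 and 3. For 82 cytosolic ribosomal proteins it went from -0.35 to 0.05 and to -0.58. Astrocyte markers showed the mirror image. None of 13 passed, their median was 0.43, and it became -0.10 without controls 2 and 4 and 1.33 without controls 1 and 3. The astrocyte markers summed to 3133, 696, 2103 and 1581 CPM in shControl and to 2800 and 3163 CPM in the knockdown, and Gfap alone read 89.4, 1.71, 149 and 10.8 CPM against 74.2 and 257 CPM. The part of astrocytes in the changes above was not tested.

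**Figure D4:**
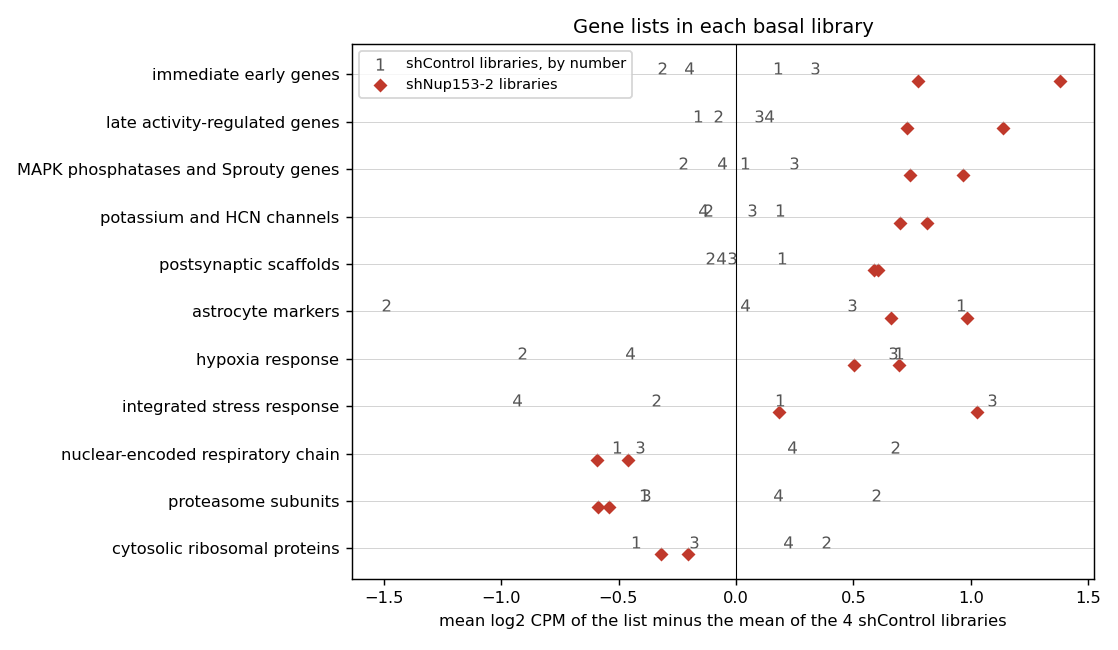
Mean log2 CPM of each list in each basal library, minus the mean of the 4 shControl libraries. Grey digits are the shControl libraries by number and red diamonds the shNup153-2 libraries. The diamonds lie to the right of all digits for the first 5 lists, while for respiratory chain, proteasome and ribosomal genes, hypoxia response and astrocyte markers they lie near digits 1 and 3.

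The silenced cultures measured the same hairpin in other libraries, with controls of their own. There 306 genes rose, 1.61% of the 18965 tested, and 348 fell, 1.83% of them. With the replicate number as a block these counts were 2214 and 1946. Of the basal genes also tested there, 1029 of 1097 that rose had a positive silenced value (93.8%) and 669 of 696 that fell had a negative one (96.1%), while 51.0% of all genes tested in both were positive. The median silenced change was 0.53 for genes that rose at basal state and -0.68 for those that fell. Genes called in both states in the same direction numbered 188 rises, 16.2% of the basal and 61.4% of the silenced ones, and 209 falls, 29.2% of the basal and 60.1% of the silenced ones. Under the block they were 686 rises, 58.9% of the basal and 31.0% of the silenced ones, and 493 falls, 68.9% and 25.3%. No gene was called in opposite directions without the block. Under the block 6 genes that rose at basal state fell in silenced cultures, namely Trib2, Synj2, Dusp1, Dusp4, Nr4a2 and Vgf, and 2 that fell at basal state rose, Zfp189 and Ptprv (Trib2, Synj2 and Ptprv were named after their values were seen). Across the 18232 genes tested in both, Pearson's r of the log2 fold changes was 0.56 and Spearman's rho 0.51, where genes are not independent replicates. The silenced counts rest on single libraries. They were 1 and 3 without knockdown library 1, 163 and 209 without library 2, and 54 and 45 without library 3. Without shControl library 1 they were 2 and 10, and without shControl library 3 they were 27 and 57.

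Several genes with a small p at basal state were called under silencing as well. Nup153 was at 62.5, 49.97 and 60.2 CPM in silenced shControl and 10.4, 13.2 and 9.17 CPM with the hairpin (-2.40, edgeR BH-adjusted p = 0.00534). Grsf1 read 108, 93.2 and 99.7 CPM against 21.9, 24.4 and 18.8 CPM (-2.21, edgeR BH-adjusted p = 0.00283), and Syt5 153, 171 and 155 CPM against 39.3, 44.0 and 43.7 CPM (-1.91, edgeR BH-adjusted p = 0.00218). Panx2 went from 49.0, 48.7 and 48.5 CPM to 190, 149 and 135 CPM (1.70, edgeR BH-adjusted p = 0.00634). The genes called at basal state, which were selected by their basal values, had smaller silenced changes at the median. For genes that rose it was 0.53 against 1.31 at basal state, and for genes that fell -0.68 against -1.41. Activity-regulated genes were among those with smaller silenced values. Npas4 had a silenced log2 fold change of 0.69, Nr4a1 of 0.43, Acan of 0.62, Adcyap1 of 0.85 and Vgf of -0.82, and none of these 5 passed there without the block. Of 35 immediate early genes tested under silencing 0 rose and 0 fell in edgeR without the block (median 0.01), and 4 rose and 5 fell with it (median 0.07). With the block Nr4a3 passed as a rise (edgeR BH-adjusted p = 0.00149) and Vgf as a fall (edgeR BH-adjusted p = 0.0473). The difference between the states was tested itself, and 0 of 20926 genes passed in edgeR, with a smallest BH-adjusted p of 0.0549 and 2393 genes at an unadjusted p under 0.05. Without basal shControl library 1, 12 genes passed, without silenced shControl library 2, 5 did, and without any of the others 0 to 2 did. A call at basal state alone therefore does not show that a gene's response differed between states. In simulated libraries with a dispersion of 0.05, this test recovered 8.25% of 2-fold and 71.9% of 4-fold differences. That 0 genes passed therefore does not show that the responses were alike.

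**Figure D5:**
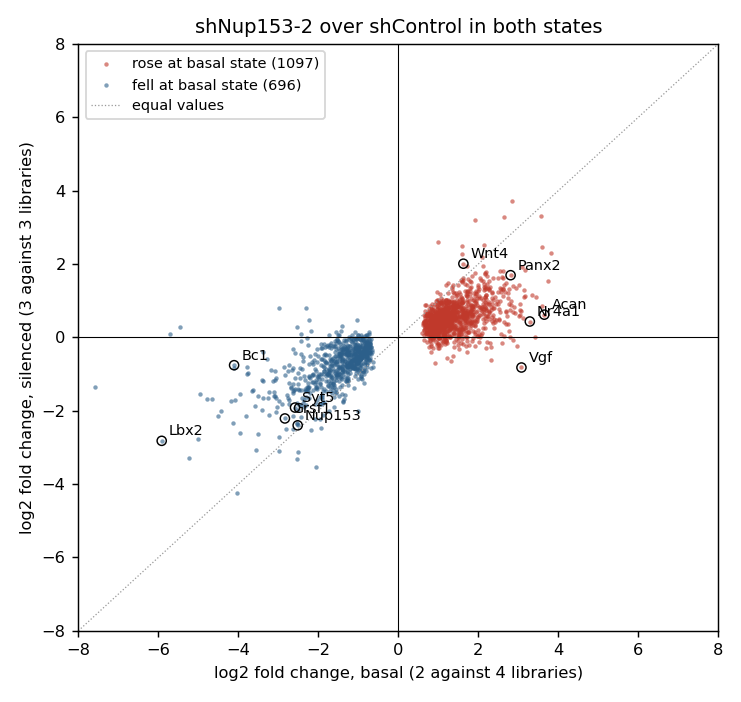
Log2 fold change of shNup153-2 over shControl at basal state (horizontal) and in silenced cultures (vertical) for the genes called at basal state and tested in both, 1097 that rose in red and 696 that fell in blue. The dotted line marks equal values. Most points lie in the quadrants of equal sign (93.8% and 96.1%), and most of the red points lie below the line. Silenced changes were smaller at the median on both sides, at 0.53 against 1.31 for genes that rose and -0.68 against -1.41 for genes that fell. All points were selected by their basal values.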

How the data were processed

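Per the submitters' processing notes, the authors used FastQC, featureCounts 2.0.1 and mm10. The deposited values are whole-number counts per gene, not normalized. Aligner, annotation and strand setting: not given in the sources used here. Libraries were stranded, poly(A)-selected and of RNA with a high integrity number, per the labels' protocols. The basal columns of shNup153-1, out of register in the lower table, and those that share 1 name were not used, 4 columns in all. The 6 columns used were in register throughout.

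Counts of the 6 libraries were fitted with edgeR 4.0.16 (R 4.3.3): filterByExpr with a minimum count of 10, TMM, quasi-likelihood F test, adjustment after Benjamini and Hochberg (BH) across the genes tested, threshold 0.05. SE is the absolute log2 fold change over the square root of F. Silenced libraries were fitted alone, and the difference of states over 12 libraries. In silenced cultures, libraries of equal number correlated in their residuals at 0.29, 0.57 and 0.62 (the labels do not say what a number shares), so the blocked fit is given there. Library totals limit precision, and intervals cover counting error only. With a simulated common dispersion of 0.05, 37.5% of 2-fold and 95.9% of 4-fold changes were recovered in the basal design over 19224 genes. The estimated basal dispersion was 0.0845, so the simulated libraries varied less than the real ones.

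The members, lists and tests were chosen with earlier results of these data known, and 55 lists are described by counts and medians alone. Named genes are Nup153, Hdac1 and, past the threshold with both knockdown libraries on 1 side of all controls, at least 1 CPM in the higher group and no predicted name, the 16 largest changes each way, 6 further by p, 8 by CPM difference, and up to 4 per list by p. Members of a list beyond these were named after their values were seen. Annotation (GENCODE M21, GRCm38) gave lengths for 98.4% of genes tested. Motifs and microRNAs are from RefSeq tables. Alternatives were DESeq2 1.42.0, limma-voom 3.58.1, RLE size factors, other filters, a replicate block, 1 fit with the silenced libraries, a length trend removed by loess, and each library left out. At basal state the block held libraries 1 and 2 of each group only. Fits without 2 controls were added after seeing the data. The labels call a replicate 1 litter and do not say whether knockdown and control libraries shared litters. Some results are not reported here.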

Additional observations from a re-analysis of the deposited data

Results flagged for a closer look

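Among the named genes, 8 had 1 shControl library far from the other 3, by a gap that exceeds the 95% critical value for 4 samples. Chance flags about 1 group in 20, and 8 flags among 173 genes are near that rate. Fcgr3 was at 7.57 CPM in library 2 against 2.21 to 2.83 in the others, so its fall rests on controls that differ, though the lowest control was still above both knockdown libraries. Prnp was at 966 CPM in library 4 against 546 to 609, and Nova2, whose exons are covered to 31.7% by the other strand, at 118 CPM in library 1 against 77.4 to 80.4. The remaining gaps were small. Prps1l3 was at 23.0 CPM in library 2 against 19.77 to 19.97, Maml1 at 5.85 CPM in library 2 against 8.29 to 8.79, and Zfp629 at 20.1 CPM in library 2 against 22.2 to 22.6. Mrps17 was at 74.6 CPM in library 1 against 79.1 to 79.9, and Nr1d1 at 30.1 CPM in library 3 against 35.9 to 36.7. Library 2 was the outlying one for 4 of the 8.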

How the results depend on the processing

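The basal counts of 1164 rises and 716 falls became 1924 and 1700 with DESeq2, 2029 and 1804 in 1 fit with the silenced libraries, 1937 and 1469 without shControl libraries 2 and 4, and 4706 and 4371 without shControl libraries 1 and 3. They stayed within 1.5 times with RLE size factors, limma-voom, both filters and the length trend removed. The basal fit with a replicate block gave 1355 and 766. It used only libraries 1 and 2 of each group, without shControl libraries 3 and 4, so it is not the same comparison with a block added. Same-numbered basal libraries correlated at 0.24 and 0.05 over 2 pairs, from knockdown residuals that mirror each other, so whether the numbers pair them cannot be told. Leaving out each library gave 15 to 1312 rises and 0 to 899 falls. Nup153 ranged from -2.63 to -2.34 over these, and its call was lost without either knockdown library. Silenced counts of 306 and 348 became 886 and 905 with DESeq2 and 2214 and 1946 with the replicate block, and ranged over 1 to 273 and 3 to 386 with a library left out. The 0 genes that differed between states became 3 with no filter and 0 to 12 with a library left out. No named gene changed direction. Silenced falls outnumbered rises in the main fit, while rises outnumbered falls with the replicate block. The basal excess of rises was gone with the length trend removed, at 1007 rises and 1007 falls. Of the 55 list medians, 14 moved by more than the spread of the controls without controls 2 and 4, 18 without controls 1 and 3, and 13 with the length trend removed. Of 172 named genes past the threshold, 154 and 160 lost their call without knockdown library 1 and 2, and 62 without shControl library 4. Changes of 2-fold were recovered less often than not in simulated libraries, so genes that did not pass are not shown to be unchanged.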

Other observations

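Of 81 splicing factor genes, 4 rose and 5 fell at basal state, 4.94% and 6.17% against 5.91% and 3.64% of all genes, so their shares lie near those of all genes. With the length trend removed 4 rose and 9 fell. The 4 that rose are of neuronal families, with Elavl3 at 120, 111, 109 and 108 CPM in shControl and 283 and 250 CPM in the knockdown (log2 fold change 1.25, SE 0.17), Celf3 at 1.61, Celf5 at 1.42 and Nova2 at 1.05. Those that fell were Snrpd3, a core protein of spliceosomal particles (-1.02), and the SR proteins Srsf2 (-1.02), Srsf6 (-0.79), Srsf7 (-0.73) and Srsf10 (-0.73). Of 343 zinc finger genes named Zfp, 17 rose and 2 fell, shares of 4.96% and 0.583%, and 17 rose and 5 fell with the length trend removed. Clock genes split as well, with the repressor Cry1 at 56.9, 67.9, 58.1 and 63.3 CPM in shControl and 20.1 and 21.7 CPM in the knockdown (-1.56), Ciart at -1.28 and Tef at -0.74, against Per1 at 1.09 and Nr1d1 at 0.87. The upper-layer factor Cux2 (1.80) and Nfix (2.55) rose among 26 transcription factors of cortical layers, of which 4 rose and 2 fell with the length trend removed. Cyclins Ccne1 (-2.47) and Ccne2 (-1.42) and the kinase Plk1 (-1.90) were the 3 of 35 cell cycle genes that fell, none rose, and 5 fell with the length trend removed.

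By class of gene, 7.22% of 14425 protein-coding genes rose and 4.12% fell, against 5.71% and 4.20% of 595 lincRNA genes and 1.14% and 1.86% of 1934 processed pseudogenes. Genes with a mean over 100 CPM rose in 8.56% of cases and those under 1 CPM in 2.35%. On the autosomes the share that rose ran from 3.97% on chromosome 14 to 8.27% on chromosome 15, and on chromosome X it was 3.76%. The imprinted genes Cdkn1c, Nnat, Blcap and Mirg fell and Zdbf2 rose, of 31 tested. Exons of the other strand cover 30.7% of Cdkn1c.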
